A study of Homo sapiens with 24 samples.

Results

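The Rab GTPases other than RAB25, RAB11A, RAB5A and RAB7A were described in A2780 cells, a human ovarian cancer line, that either expressed Rab25 or carried the empty pcDNA vector. Members were taken by gene symbol (RAB followed by a number and optional letters), without those 4 genes and without the partner genes named after Rabs. This gave 42 of the 11940 genes measured, each read from its probe set of highest average signal. The symbols are those of the platform's annotation, and 19 of the 42 genes had more than 1 probe set.

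Total RNA was profiled on 24 Affymetrix expression arrays, 12 of Rab25-expressing cells and 12 of pcDNA cells, which the series describes as independent samples. Both lines were kept without serum for 8 h before treatment. The treatments were the growth factors EGF and IGF at 10 ng/ml each, TGF beta at 5 ng/ml, and 5% fetal bovine serum (FBS), with 2 arrays for each treatment and line and 4 arrays of starved cells for each line. The arrays were split evenly over experiment 2 and experiment 1. By the treatment protocol cells were exposed for 24 h (experiment 2) or 8 h (experiment 1), but the sample names state 24 h for treated cells of both, and this conflict was not settled. Each line is a transfected population, whether it came from 1 clone is not given in the sources used here, and the effect of Rab25 and other differences between these 2 populations cannot be told apart.

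Rab proteins are small GTPases that mark the membranes of the secretory and endocytic pathways. In the GTP-bound form, set by exchange factors (GEFs), a Rab recruits effectors such as tethers and motors to its membrane. GTPase-activating proteins (GAPs) switch it off, and GDP dissociation inhibitors return the prenylated protein to the cytosol. Rab25 belongs to the Rab11 branch, which works on recycling endosomes, and it has been studied in ovarian cancer for its part in integrin recycling and invasion.

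Values are the authors' log2 signals per probe set, so a difference of 1 is a doubling of signal, and the level of one probe set says nothing about that of another. Log2 signal of RAB25 itself averaged 8.65 ± 0.30 on the Rab25 arrays and 5.26 ± 0.25 on the pcDNA arrays (SD, n = 12 each), and the 2 ranges did not overlap. Array medians lay between 7.03 and 7.32 for Rab25 cells and between 7.21 and 7.35 for pcDNA cells. The actin control's 3′ signal less its 5′ signal, a sign of RNA quality, averaged 0.78 ± 0.12 on Rab25 arrays and 0.88 ± 0.15 on pcDNA arrays, and for GAPDH 0.30 ± 0.05 on Rab25 arrays and 0.27 ± 0.05 on pcDNA arrays. Over the 24 arrays the mean log2 signal was 12.75 for keratin KRT8, 13.99 for KRT18, 11.86 for the Muellerian factor PAX8, 5.25 for EPCAM, 5.50 for CDH1 and 4.94 for MUC16, each from its own probe set.

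Both arrays of FBS-treated Rab25 cells were above the other 22 in 6 of 8 marker lists (epithelial, blood, fibroblast and stroma, breast, adipocyte and macrophage), and not in the ovarian or Muellerian and endothelium lists. The mean log2 signal of 6 fibroblast and stroma genes was 9.50 to 10.86 on them, 6.99 to 7.39 on the other Rab25 arrays and 6.85 to 7.58 on the pcDNA arrays. The 7 measured breast epithelium genes averaged 6.27 to 7.41 on them, 5.35 to 5.50 on the other Rab25 arrays and 5.27 to 5.50 on pcDNA arrays. The 4 adipocyte genes reached 5.96 to 7.19 there, 5.40 to 5.63 on the other Rab25 arrays and 5.43 to 5.83 on pcDNA arrays. The 4 endothelium genes averaged 7.12 to 7.47 there, 6.92 to 7.54 on the other Rab25 arrays and 6.61 to 7.29 on pcDNA arrays. The part of these signals in the Rab values was not tested, and the Rab counts that use both arrays are given with and without them.

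Over all conditions, 13 of the 42 Rab genes differed between Rab25 and pcDNA cells (31%), against 24.7% of all genes. RAB6A and RAB6C, whose signals cannot be split, enter this and the later counts as 2 genes. RAB1B, RAB6A, RAB6C, RAB38, RAB5C and RAB14 were higher in Rab25 cells, and RAB4B, RAB2A, RAB35, RAB27A, RAB15, RAB28 and RAB40A were lower. The largest change was 1.39-fold in RNA of bulk cells, where fewer cells expressing a gene and less RNA per cell cannot be told apart, and the median log2 difference of all 42 was -0.01, beside -0.01 over all genes. Among all genes 9.14% were higher and 15.5% lower. The test was limma's moderated test on 10 groups with the experiment as a term, with Benjamini-Hochberg adjustment over the 11940 genes and a threshold of 0.05. Within experiment 2 alone 12 Rab genes passed, against 25.2% of all genes, and within experiment 1 alone 8 passed, against 24.6%. Removal of both FBS-treated Rab25 arrays gave 14 calls, 7 in each direction, and centring each array on its median gave 7 higher and 4 lower. The share of all genes called in these fits is not given here.

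**Figure D1:**
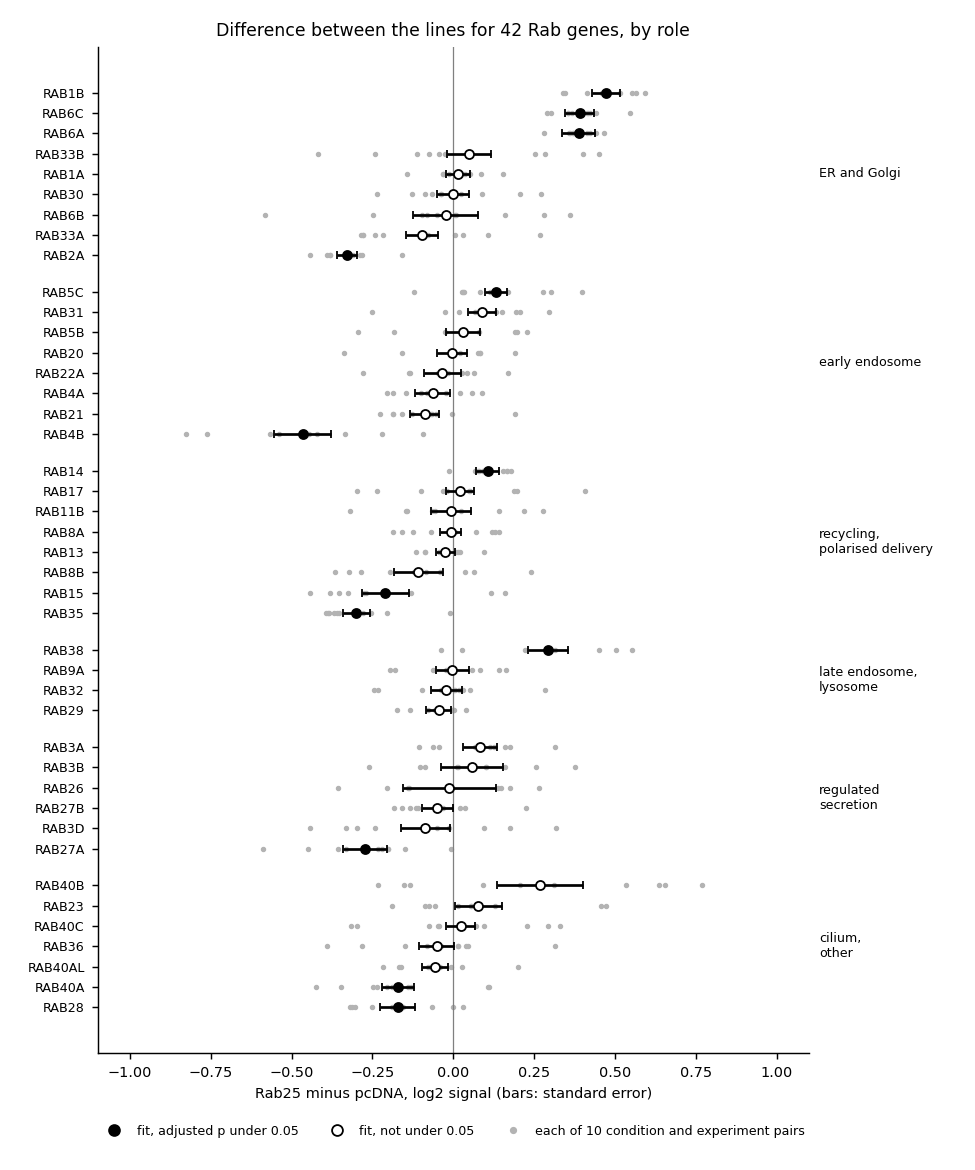
Difference in log2 signal between Rab25 and pcDNA cells for the 42 Rab genes, grouped by role. Black and white circles are the fitted differences with their standard errors, filled where the adjusted p was under 0.05, and grey points are the difference in each of the 10 pairs of condition and experiment; RAB1B, RAB6A and RAB6C lie right of 0 in all 10 pairs, and RAB4B, RAB2A, RAB35 and RAB27A lie left of 0 in all 10.

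Among the 9 Rabs grouped under the endoplasmic reticulum (ER) and Golgi, 3 rose, 1 fell and 5 did not pass the test. The 3 rises include RAB6C, which was placed here beside RAB6A, and where its own protein acts was not looked at. RAB1B, which drives transport from the ER to the Golgi, had a lowest, median and highest log2 signal of 10.97, 11.27 and 11.38 on Rab25 arrays, against 10.51, 10.72 and 10.92 on pcDNA arrays. Every Rab25 array was above every pcDNA array, and the gene was higher in all 10 pairs of condition and experiment (log2 difference 0.47, SE 0.0421, adjusted p = 4.59e-07). RAB2A, which acts in traffic between the Golgi and the ER, showed the opposite pattern with 12.29, 12.43 and 12.59 on Rab25 arrays and 12.63, 12.77 and 13.02 on pcDNA arrays. All 12 Rab25 arrays lay below all pcDNA arrays, and the fall was seen in all 10 pairs (log2 difference -0.33, SE 0.0312, adjusted p = 9.23e-07). RAB1B and RAB2A were the 2 members whose lines did not overlap, a separation shared by 1.51% of all genes.

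RAB6A, which directs retrograde transport from the Golgi to the ER, had 12.70, 12.84 and 13.18 on Rab25 arrays and 12.26, 12.46 and 12.83 on pcDNA arrays. The ranges overlapped over both experiments, and within each condition and experiment the Rab25 arrays were higher (log2 difference 0.39, SE 0.0516, adjusted p = 2.91e-05). RAB6C, an intronless copy of RAB6A, had 12.28, 12.35 and 12.71 on Rab25 arrays and 11.80, 12.00 and 12.35 on pcDNA arrays, and was higher in Rab25 cells in all 10 pairs (log2 difference 0.39, SE 0.0455, adjusted p = 7.48e-06). The 2 probe sets moved together over the 24 arrays (Pearson r = 0.987), and since their transcripts are near-identical the signals cannot be split between the genes. RAB6A had 2 further, dimmer probe sets, 1 with a difference of 0.48 past the threshold over all probe sets and 1 with 0.07 that was not.

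The 5 other Golgi Rabs stayed under the threshold. RAB1A, the paralogue of RAB1B, averaged 13.27 ± 0.10 in Rab25 cells and 13.27 ± 0.12 in pcDNA cells (SD, n = 12 each, as for the averages that follow). RAB6B, the neuronal form of RAB6, had 7.44 ± 0.25 in Rab25 cells and 7.43 ± 0.24 in pcDNA cells, although its second, dimmer probe set was lower in Rab25 cells by a log2 difference of -0.25 and passed the threshold. RAB30, a Golgi Rab, had 5.41 ± 0.14 in Rab25 cells and 5.39 ± 0.10 in pcDNA cells. The means of these genes differed between lines by less than 1 SD. RAB33A averaged 5.72 ± 0.20 in Rab25 cells and 5.81 ± 0.11 in pcDNA cells. RAB33B, which binds the autophagy protein ATG16L1, had 6.66 ± 0.19 in Rab25 cells and 6.63 ± 0.23 in pcDNA cells.

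Of 8 early endosome Rabs, 1 rose, 1 fell and 6 did not pass. RAB4B, which returns cargo quickly from early endosomes to the surface, had 6.48, 7.03 and 7.64 on Rab25 arrays, against 6.98, 7.40 and 7.97 on pcDNA arrays. The ranges overlapped, and the Rab25 value was the lower one in each of the 10 pairs (log2 difference -0.47, SE 0.0882, adjusted p = 0.000801). RAB4A, its paralogue, had 10.22 ± 0.14 in Rab25 cells and 10.28 ± 0.11 in pcDNA cells, a difference of -0.06 with an adjusted p above the threshold. RAB5C, one of 3 RAB5 forms that control fusion of early endosomes, had 11.86, 12.00 and 12.14 on Rab25 arrays and 11.63, 11.87 and 11.99 on pcDNA arrays. The ranges overlapped, and the Rab25 value was higher in 9 of 10 pairs (log2 difference 0.13, SE 0.0337, adjusted p = 0.00836). A second probe set gave a larger rise of 0.33.

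RAB5B had 9.22 ± 0.20 in Rab25 cells and 9.18 ± 0.19 in pcDNA cells. RAB21, which binds integrin tails during their uptake, averaged 10.34 ± 0.22 in Rab25 cells and 10.45 ± 0.19 in pcDNA cells, and RAB22A, of early and recycling endosomes, 11.60 ± 0.19 in Rab25 cells and 11.65 ± 0.20 in pcDNA cells. RAB31, which moves cargo between the Golgi and endosomes, had 11.74 ± 0.15 in Rab25 cells and 11.64 ± 0.15 in pcDNA cells, and RAB20 had 8.94 ± 0.17 in Rab25 cells and 8.93 ± 0.15 in pcDNA cells. Log2 differences of these 5 genes ran between -0.09 for RAB21 and 0.09 for RAB31, and none passed.

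Among 8 Rabs of recycling and polarised delivery, 1 rose, 2 fell and 5 did not pass. RAB35, which serves fast recycling and cytokinesis, had 7.49, 7.93 and 8.13 on Rab25 arrays and 7.85, 8.29 and 8.50 on pcDNA arrays. It was lower in Rab25 cells in all 10 pairs (log2 difference -0.30, SE 0.0424, adjusted p = 5.16e-05), while a second, dim probe set gave -0.03. RAB15, of early and recycling endosomes, had 7.31, 7.69 and 8.05 on Rab25 arrays and 7.51, 7.91 and 8.15 on pcDNA arrays, with the lower value in Rab25 cells in 8 of 10 pairs (log2 difference -0.21, SE 0.073, adjusted p = 0.0442). RAB14, which links the Golgi and endosomes, had 11.69, 11.80 and 12.00 on Rab25 arrays and 11.60, 11.68 and 11.82 on pcDNA arrays (log2 difference 0.11, SE 0.0359, adjusted p = 0.0401). Its 2 other probe sets gave -0.10 and -0.13 without passing, so the direction of RAB14 depended on the probe set. For RAB35, RAB15 and RAB14 the ranges of the lines overlapped.

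The Rab11 paralogue RAB11B, the closest relative of Rab25 among the members, averaged 6.90 ± 0.21 in Rab25 cells and 6.90 ± 0.11 in pcDNA cells, a difference of -0.01. RAB8A, which delivers vesicles to the surface and the cilium, had 11.40 ± 0.10 in Rab25 cells and 11.40 ± 0.12 in pcDNA cells. Its paralogue RAB8B had 9.12 ± 0.43 in Rab25 cells and 9.24 ± 0.36 in pcDNA cells. For each of these 3 genes the lines differed by less than 1 SD. RAB13, of epithelial junctions, had 13.61 ± 0.06 in Rab25 cells and 13.64 ± 0.07 in pcDNA cells, and RAB17, of transcytosis in polarised epithelia, had 5.50 ± 0.12 in Rab25 cells and 5.48 ± 0.12 in pcDNA cells. None of these 5 passed.

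RAB38 was 1 of 4 Rabs of late endosomes, lysosomes and related organelles, and the one of these that changed. This Rab, which with RAB32 sends enzymes to melanosomes, had 9.41, 9.82 and 10.64 on Rab25 arrays and 9.21, 9.51 and 10.19 on pcDNA arrays. The ranges overlapped, and the Rab25 value was higher in 9 of 10 pairs (log2 difference 0.29, SE 0.0619, adjusted p = 0.00207). RAB32 had 10.77 ± 0.18 in Rab25 cells and 10.79 ± 0.14 in pcDNA cells. RAB9A, which returns receptors from late endosomes to the Golgi, averaged 9.54 ± 0.25 in Rab25 cells and 9.55 ± 0.32 in pcDNA cells. RAB29, a lysosomal Rab that binds the kinase LRRK2, averaged 11.27 ± 0.16 in Rab25 cells and 11.31 ± 0.15 in pcDNA cells, and its second probe set was lower in Rab25 cells by -0.30 and passed.

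Of 6 Rabs of regulated secretion, RAB27A alone passed. This Rab, which docks secretory lysosomes and exosome-producing compartments, had 8.39, 8.82 and 9.22 on Rab25 arrays and 8.75, 9.09 and 9.43 on pcDNA arrays. It was lower in Rab25 cells in all 10 pairs (log2 difference -0.27, SE 0.0688, adjusted p = 0.00707). Of its 2 other probe sets, 1 gave -0.225 and passed over all probe sets, and 1 gave -0.145 and did not. Its paralogue RAB27B averaged 5.47 ± 0.09 in Rab25 cells and 5.51 ± 0.11 in pcDNA cells, and the granule Rab RAB26 7.21 ± 0.41 in Rab25 cells and 7.18 ± 0.34 in pcDNA cells. The RAB3 forms, which act in calcium-triggered exocytosis, did not pass either. RAB3A had 6.06 ± 0.15 in Rab25 cells and 5.98 ± 0.09 in pcDNA cells. RAB3B had 9.67 ± 0.23 in Rab25 cells and 9.60 ± 0.33 in pcDNA cells. RAB3D had 5.79 ± 0.22 in Rab25 cells and 5.86 ± 0.12 in pcDNA cells.

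In the group of ciliary and other Rabs, 2 of 7 fell and none rose. RAB28, a ciliary Rab, had 8.53, 8.93 and 9.34 on Rab25 arrays and 8.69, 9.10 and 9.61 on pcDNA arrays (log2 difference -0.17, SE 0.0545, adjusted p = 0.0277). RAB40A, a member of the RAB40 subfamily that recruits ubiquitin ligases, had 5.24, 5.46 and 5.60 on Rab25 arrays and 5.44, 5.58 and 5.83 on pcDNA arrays (log2 difference -0.17, SE 0.0496, adjusted p = 0.0177). The ranges of both genes overlapped between the lines. The RAB40A probe set was dim, at percentile 18.1 of mean signal over all genes. Among its relatives, RAB40AL averaged 5.27 ± 0.09 in Rab25 cells and 5.33 ± 0.07 in pcDNA cells and RAB40C 6.01 ± 0.14 in Rab25 cells and 6.00 ± 0.10 in pcDNA cells, and RAB40B had 7.76 ± 0.37 in Rab25 cells and 7.46 ± 0.35 in pcDNA cells. RAB40B had a fitted difference of 0.27, with single pairs between -0.23 and 0.77, and it did not pass. RAB23, a regulator of Hedgehog signalling, had 6.90 ± 0.18 in Rab25 cells and 6.84 ± 0.20 in pcDNA cells, and RAB36 had 5.60 ± 0.13 in Rab25 cells and 5.65 ± 0.10 in pcDNA cells. Over the 42 members the 95% intervals of the difference between lines had a median half-width of 0.11 and a widest one of 0.30.

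**Figure D2:**
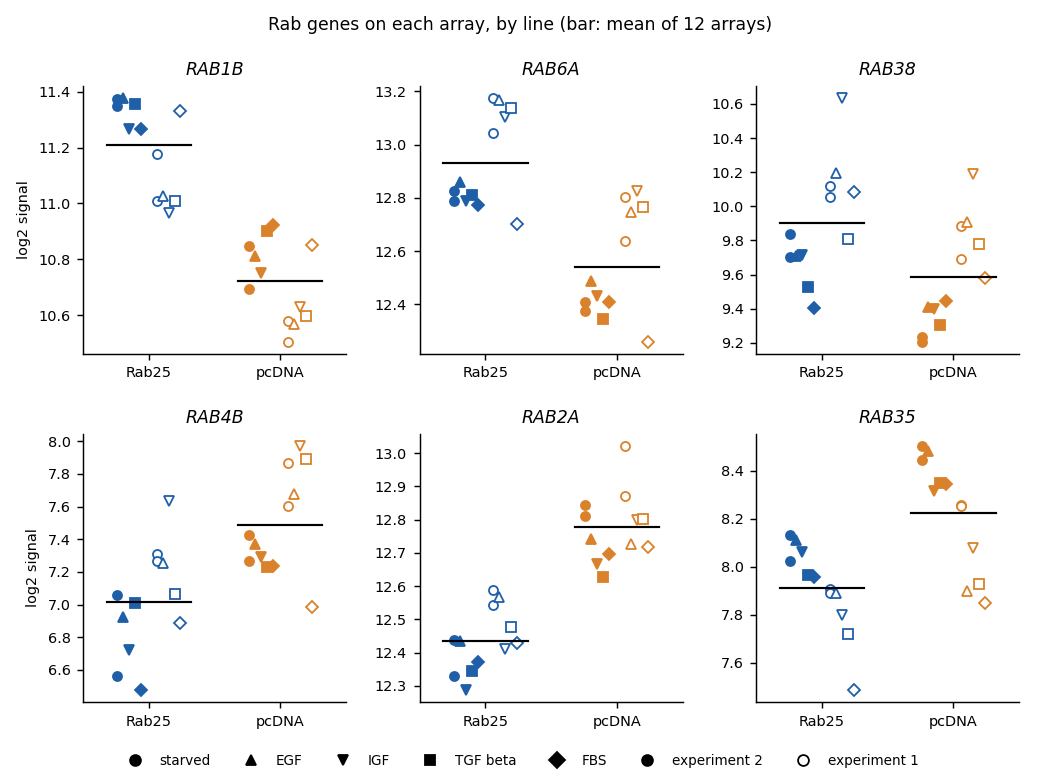
Log2 signal of 6 Rab genes on each of the 24 arrays, Rab25 cells on the left of each panel and pcDNA cells on the right, with symbols for the condition, filled for experiment 2 and open for experiment 1. Bars are means of 12 arrays; the lines do not overlap for RAB1B and RAB2A, and RAB38 lies higher in experiment 1 in each line and condition, as do RAB6A and RAB4B except after FBS, where RAB6A in both lines and RAB4B in pcDNA cells lie lower.

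In starved cells alone, 9 of 42 Rab genes passed (21.4%), 5 higher and 4 lower in Rab25 cells, against 14.8% of all genes (5.56% higher and 9.24% lower). The 9 genes were all among the 13 above. RAB1B had 11.38, 11.35, 11.18 and 11.01 on the Rab25 arrays, experiment 2 before experiment 1, against 10.69, 10.85, 10.58 and 10.51 on the pcDNA arrays (log2 difference 0.57, SE 0.0701, adjusted p = 6.15e-05). RAB5C had 11.94, 12.03, 12.14 and 12.02 on Rab25 arrays and 11.64, 11.73, 11.63 and 11.73 on pcDNA arrays (log2 difference 0.35, SE 0.0562, adjusted p = 0.000534). RAB27A had 8.86, 8.74, 8.44 and 8.77 on Rab25 arrays and 9.00, 9.26, 9.07 and 9.32 on pcDNA arrays (log2 difference -0.46, SE 0.115, adjusted p = 0.0121). In each of these 3 genes the 4 arrays of one line lay outside the range of the other. The same held for RAB2A, RAB35 and RAB6C, and for members that did not pass, such as RAB22A and RAB40B. How many of all genes separate this way is not given here.

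RAB38 had 9.70, 9.84, 10.06 and 10.12 on starved Rab25 arrays and 9.21, 9.23, 9.69 and 9.88 on starved pcDNA arrays, and the lines overlapped across but not within experiments (log2 difference 0.43, SE 0.103, adjusted p = 0.0101). RAB4B had 7.06, 6.56, 7.31 and 7.26 on Rab25 arrays and 7.43, 7.27, 7.60 and 7.87 on pcDNA arrays (log2 difference -0.49, SE 0.147, adjusted p = 0.0328), with the same pattern. Its call was lost when any one of 6 starved arrays was left out, and the difference then stayed between -0.57 and -0.39 over all single arrays left out. RAB6A, RAB6C, RAB2A and RAB35 differed by 0.40, 0.36, -0.41 and -0.37. Without the experiment term 4 of the 9 calls were made. With the median over probe sets in place of the brightest, the starved calls of RAB27A and RAB35 were lost.

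The promoters of RAB1B, RAB4B and RAB35 are shown because these genes had the largest rise and 2 of the 3 largest falls between the lines, each seen in all 10 pairs. Each run is the 250 bases before the annotated start in RefSeq on GRCh38.p14, read 5′ to 3′ on the gene's strand, with the GC box (GGGCGG or its complement CCGCCC) and the CCAAT box (CCAAT or ATTGG) in capitals.
RAB1B, chr11:66268389-66268638, plus strand: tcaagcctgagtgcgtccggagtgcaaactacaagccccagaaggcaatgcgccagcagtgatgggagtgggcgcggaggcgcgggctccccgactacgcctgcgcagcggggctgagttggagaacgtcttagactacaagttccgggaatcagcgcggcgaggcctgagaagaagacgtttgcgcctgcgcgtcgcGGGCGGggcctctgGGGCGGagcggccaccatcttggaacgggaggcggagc
RAB4B, chr19:40777997-40778246, plus strand: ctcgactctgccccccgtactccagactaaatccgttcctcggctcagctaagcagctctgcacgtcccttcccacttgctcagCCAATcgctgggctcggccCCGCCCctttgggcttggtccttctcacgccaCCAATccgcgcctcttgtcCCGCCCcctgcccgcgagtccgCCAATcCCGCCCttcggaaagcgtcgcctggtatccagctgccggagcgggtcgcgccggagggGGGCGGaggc
RAB35, chr12:120116754-120117003, minus strand: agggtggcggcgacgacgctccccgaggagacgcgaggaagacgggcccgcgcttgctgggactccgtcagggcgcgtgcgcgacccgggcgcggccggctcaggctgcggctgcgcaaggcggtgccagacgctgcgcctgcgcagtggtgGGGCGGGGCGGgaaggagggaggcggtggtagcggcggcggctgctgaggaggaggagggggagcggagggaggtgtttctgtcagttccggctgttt
RAB1B and RAB35 held 2 GC boxes each and no CCAAT box, the 2 boxes of RAB35 sharing a base, and RAB4B held 4 GC boxes and 3 CCAAT boxes. GC content was 66.8% for RAB1B, 68.4% for RAB4B and 74.4% for RAB35. RefSeq promoters matched 33 of the 42 members, with a mean GC content of 63.4%, against 60.9% for 15843 protein-coding genes. Over the same 250 bases a GC box was in 78.8% of the 33 and in 56.0% of all, a CCAAT box in 33.3% and 34.5%, and the E-box CACGTG in 9.09% (RAB21, RAB31 and RAB4A) and 7.84%. The cyclic AMP element TGACGTCA was in none of the 33 and in 2.32% of all, with both strands searched for each motif.

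Of the 6 Rabs that rose, 3 lie on the long arm of chromosome 11, and genes around them were often higher in Rab25 cells too. Within 5 Mb of RAB1B (chr11:66268639-66277492, GRCh38.p14), 100 of 171 other genes were higher (58.5%) and 2 lower, with a median log2 difference of 0.23. Around RAB6A (chr11:73675638-73761074) 29 of 68 were higher (42.6%) with a median of 0.13, and around RAB38 (chr11:87803715-88175443) 10 of 23 were higher (43.5%) with a median of 0.09. Over the whole chromosome 37.7% of 722 genes were higher, against 9.14% of all genes. RAB30, on the same arm, did not pass (difference -0.00, a dim probe set), and 12 of its 20 neighbours were higher. DNA copy number was not measured here, and this pattern was looked at after the values were seen.

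The neighbours of the falling Rabs differed among themselves. Of the 20 genes around RAB2A on chromosome 8, 8 were lower (40%) and none higher, with a median of -0.10. Around RAB4B (chr19:40778247-40796942) the median of 167 genes was 0.00, with 13 higher and 11 lower, and around RAB35 (chr12:120095099-120116753) the median of 71 genes was -0.02. RAB27A had 38 neighbours with a median of -0.03. RAB6B on chromosome 3 had 30 of 47 neighbours lower (63.8%, median -0.27). Its own difference was -0.02 with the brightest probe set and -0.25 with the second, dimmer one, so the comparison depended on the probe set.

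After subtraction of the neighbours' median, RAB1B (0.24), RAB6A (0.26) and RAB14 (0.14) were positive in all 10 pairs of condition and experiment. These values use the brightest probe set of each gene. The 2 other probe sets of RAB14 (-0.10 and -0.13) lay below its neighbours' median of -0.03, so its sign depended on the probe set. RAB4B (-0.47), RAB35 (-0.28), RAB27A (-0.24) and RAB2A (-0.23) were negative in all 10. Neighbours were not filtered by signal, so dim genes enter the medians. How far a Rab gene stood from its brighter neighbours alone was not tested. RAB6C is left out, since its signal cannot be told from that of RAB6A. Across the 42 members the Rab difference and the neighbours' median correlated at Pearson r = 0.431 (Spearman rho = 0.308), a description over genes that share chromosomes and arrays. Without RAB6C these were r = 0.479 and rho = 0.37. With a window of 1 Mb and all 42, r was 0.487 and rho 0.24, and RAB6A was then positive in 8 of 10 pairs and RAB27A negative in 9 of 10.

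**Figure D3:**
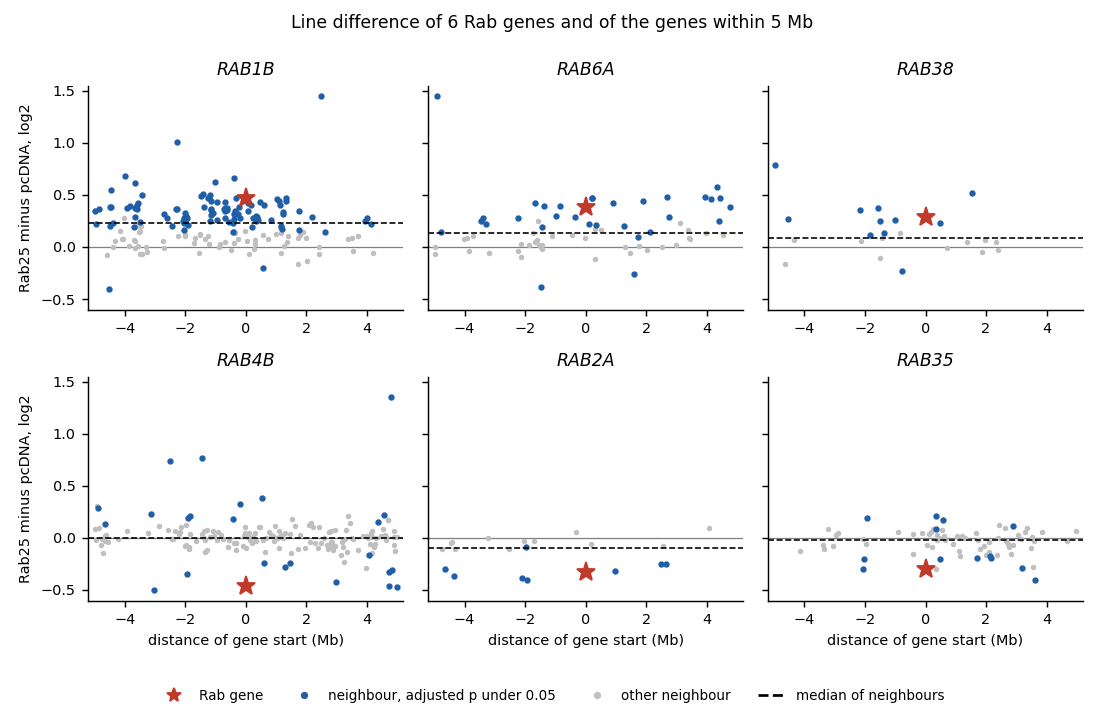
Log2 difference between Rab25 and pcDNA cells for 6 Rab genes (stars) and the genes within 5 Mb (dots, blue where the adjusted p was under 0.05), by distance of the gene start from the start of the Rab gene. The dashed line is the neighbours' median, 0.23 around RAB1B, 0.13 around RAB6A, 0.00 around RAB4B and -0.02 around RAB35.

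EGF, IGF and TGF beta changed no Rab gene past the threshold in limma's test over both lines, against 0%, 2.71% and 1.6% of all genes. At an unadjusted p under 0.05 there were 0, 9 and 6 members. For EGF the member of lowest p was RAB21, with 10.34 and 10.62 in treated Rab25 cells and 10.29, 9.93, 10.38 and 10.51 in starved ones, and 10.40 and 10.69 in treated and 10.34, 10.33, 10.54 and 10.72 in starved pcDNA cells (log2 difference 0.13, SE 0.0661, adjusted p = 0.76). Both EGF arrays of Rab25 cells were above the starved arrays of their own experiment, as was the pcDNA array of experiment 2, while that of experiment 1 lay between its starved arrays. For IGF it was RAB2A, with 12.29 and 12.41 in treated Rab25 cells and 12.44, 12.33, 12.59 and 12.54 in starved ones, and 12.67 and 12.80 in treated and 12.81, 12.85, 12.87 and 13.02 in starved pcDNA cells (log2 difference -0.14, SE 0.0451, adjusted p = 0.114). The value was lower after IGF in both lines and both experiments.

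For TGF beta the lowest p belonged to RAB5C, with 12.11 and 11.99 in treated Rab25 cells and 11.94, 12.03, 12.14 and 12.02 in starved ones, and 11.99 and 11.97 in treated and 11.64, 11.73, 11.63 and 11.73 in starved pcDNA cells (log2 difference 0.15, SE 0.0487, adjusted p = 0.175). In pcDNA cells both treated arrays were above all starved ones, and in Rab25 cells the treated array was above its starved arrays in experiment 2 and below them in experiment 1. In experiment 1 alone, 6 Rab genes passed after IGF (against 8.5% of all genes in that fit), with RAB38 (0.47), RAB8B (0.45) and RAB22A (0.30) higher and RAB40B (-0.79), RAB26 (-0.49) and RAB15 (-0.32) lower; in experiment 2 alone none did (2.3% of all genes). Within 1 experiment each line has 1 treated array, so the error of these fits comes from the starved duplicates and assumes that treated arrays vary like them. The difference between the experiments in these responses was not tested. Median 95% half-widths for the responses were 0.15.

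FBS changed 7 of 42 Rab genes (16.7%), near the 17.2% of all genes (6.43% higher and 10.8% lower). RAB31 and RAB8A were higher and RAB4B, RAB33B, RAB22A, RAB5B and RAB35 lower after FBS over both lines. Of the 8 early endosome Rabs, 1 rose, 3 fell and 4 did not pass. RAB4B had 6.48 and 6.89 in FBS-treated Rab25 cells, experiment 2 first, against 7.06, 6.56, 7.31 and 7.26 in starved ones. In pcDNA cells it had 7.24 and 6.98 after FBS and 7.43, 7.27, 7.60 and 7.87 when starved (log2 difference -0.40, SE 0.127, adjusted p = 0.0406). Every FBS array was below the starved arrays of its line and experiment.

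RAB35 had 7.96 and 7.49 in FBS-treated and 8.13, 8.03, 7.91 and 7.89 in starved Rab25 cells, and 8.34 and 7.85 in treated and 8.45, 8.50, 8.26 and 8.25 in starved pcDNA cells (log2 difference -0.27, SE 0.0612, adjusted p = 0.00739). RAB33B had 6.31 and 6.53 in FBS-treated and 6.61, 6.77, 6.68 and 6.67 in starved Rab25 cells, and 6.55 and 6.08 in treated and 6.82, 6.78, 6.74 and 6.77 in starved pcDNA cells (log2 difference -0.36, SE 0.0987, adjusted p = 0.0205). Both genes were lower after FBS in each line and experiment. The RAB33B probe set was dim, at percentile 38.9 of mean signal over all genes. RAB31 had 11.82 and 11.98 in FBS-treated and 11.62, 11.63, 11.90 and 11.79 in starved Rab25 cells, and 11.69 and 11.89 in treated and 11.45, 11.49, 11.58 and 11.70 in starved pcDNA cells (log2 difference 0.20, SE 0.0615, adjusted p = 0.0334). It was higher after FBS in each line and experiment. The 2 other probe sets of RAB31 had 0.20 and 0.06 and did not pass over all probe sets. Its call was lost with the median over probe sets in place of the brightest.

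RAB22A (log2 difference -0.29, SE 0.0824, adjusted p = 0.0224) was lower after FBS in all 4 pairs of line and experiment. RAB5B (log2 difference -0.29, SE 0.0743, adjusted p = 0.0139) was lower in 3 of 4, and RAB8A (log2 difference 0.15, SE 0.0468, adjusted p = 0.0395) higher in 3 of 4. The 2 other probe sets of RAB22A had -0.25 and -0.02 and did not pass over all probe sets. The RAB22A call was lost with the median over probe sets. The calls rested on few arrays: without both FBS-treated Rab25 arrays 3 members passed, RAB33B (-0.46), RAB5C (0.29) and RAB8A (0.24). Without the experiment term none passed. In experiment 1 alone 18 did, against 34.4% of all genes, and in experiment 2 alone only RAB33B, against 10.5%, with 1 FBS array per line in each and the error from the starved duplicates. Median centring gave 4 higher and 3 lower in place of 2 and 5. Shares of all genes are given for each experiment alone and not for the other alternatives.

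**Figure D4:**
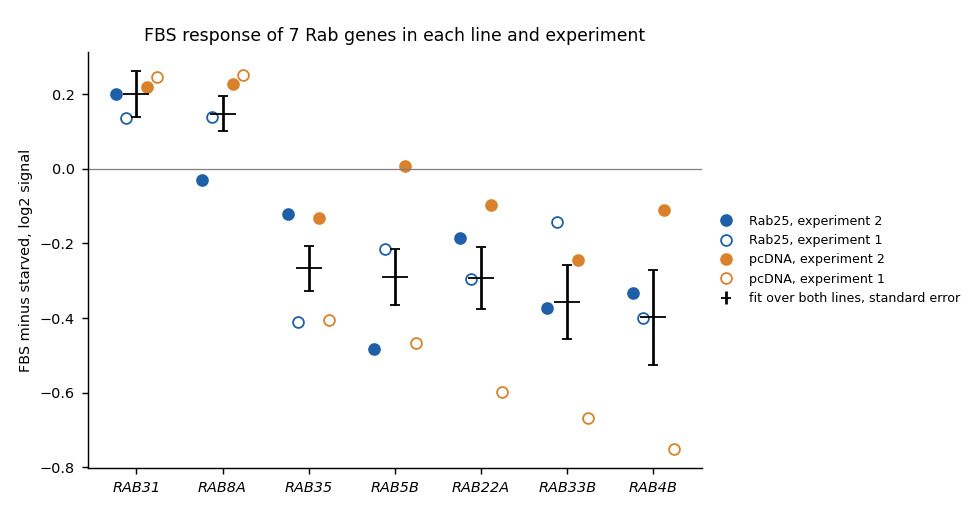
Difference in log2 signal between FBS-treated and starved cells for the 7 Rab genes that passed, Rab25 cells (blue) left of pcDNA cells (orange), filled for experiment 2 and open for experiment 1, with the fitted response over both lines and its standard error in black. RAB31 is above 0 and RAB4B, RAB33B, RAB22A and RAB35 are below 0 in all 4 pairs of line and experiment, and the pcDNA falls of RAB4B, RAB33B, RAB22A and RAB5B are deeper in experiment 1.

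No Rab gene differed between the lines in its response to EGF, IGF, TGF beta or FBS in limma's test, where 0%, 0%, 0% and 0.209% of all genes passed. At an unadjusted p under 0.05 there was 1 member in each. RAB40C had the lowest p for EGF (log2 difference 0.37, SE 0.129, adjusted p = 1, 95% interval 0.10 to 0.64), with 6.11 and 6.17 in treated and 6.00, 6.02, 5.97 and 6.03 in starved Rab25 cells, and 5.78 and 5.88 in treated and 6.06, 6.11, 6.13 and 5.96 in starved pcDNA cells. RAB5C had it for the other 3 treatments, with differences of -0.29, -0.28 and -0.39, and adjusted p values of 1, 0.817 and 0.124. These 3 comparisons share the starved arrays.

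After FBS, RAB5C had 11.86 and 12.01 in Rab25 cells and 11.98 and 11.98 in pcDNA cells, and after IGF it had 11.96 and 12.00 in Rab25 cells and 11.88 and 11.97 in pcDNA cells. The lines lay apart when starved and overlapped after both treatments, without passing the test of that difference (95% interval for FBS -0.60 to -0.19). For the 42 members the 95% half-widths of these differences had a median of 0.31 and reached 0.87.

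Between the experiments, 15 of 42 Rab genes differed in starved cells (35.7%), 3 higher and 12 lower in experiment 2, against 34.4% of all genes (15.9% higher and 18.5% lower). All 4 Rabs grouped under late endosomes, lysosomes and related organelles were among the 12, with a median log2 difference of -0.31, beside -0.05 for the 42. This count depends on the grouping, which was made with earlier results known. RAB27A, which docks secretory lysosomes but was counted under regulated secretion, differed by 0.06 and did not pass. With each array centred on its median RAB32 did not pass (-0.17, adjusted p = 0.0503), and a second probe set of RAB29 had -0.17 (adjusted p = 0.237 over all probe sets). RAB38 had 9.70 and 9.84 in Rab25 and 9.21 and 9.23 in pcDNA cells in experiment 2, against 10.06 and 10.12 in Rab25 and 9.69 and 9.88 in pcDNA cells in experiment 1 (log2 difference -0.44, SE 0.0619, adjusted p = 0.000792). RAB9A had 9.54 and 9.36 in Rab25 and 9.24 and 9.38 in pcDNA cells in experiment 2, against 9.60 and 9.71 in Rab25 and 9.77 and 9.92 in pcDNA cells in experiment 1 (log2 difference -0.37, SE 0.067, adjusted p = 0.00302). For RAB9A, RAB29 and RAB32 all 4 arrays of experiment 2 were below all 4 of experiment 1, and for RAB38 this held within each line. The share of all genes with such a separation between experiments is not given here.

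RAB29 averaged 11.11 ± 0.09 in experiment 2 and 11.37 ± 0.04 in experiment 1 (log2 difference -0.25, SE 0.0619, adjusted p = 0.0129). RAB32 averaged 10.63 ± 0.04 in experiment 2 and 10.85 ± 0.03 in experiment 1 (log2 difference -0.22, SE 0.0492, adjusted p = 0.00807; SD, n = 4 each). The promoters of RAB9A, RAB29 and RAB32 are shown because these members of the group were lower in experiment 2, with the GC and CCAAT boxes in capitals as above. RAB38 had no matching RefSeq promoter. None of the 3 shown held a CACGTG, the core of the element bound by lysosomal regulators of the TFEB family.
RAB9A, chrX:13688878-13689127, plus strand: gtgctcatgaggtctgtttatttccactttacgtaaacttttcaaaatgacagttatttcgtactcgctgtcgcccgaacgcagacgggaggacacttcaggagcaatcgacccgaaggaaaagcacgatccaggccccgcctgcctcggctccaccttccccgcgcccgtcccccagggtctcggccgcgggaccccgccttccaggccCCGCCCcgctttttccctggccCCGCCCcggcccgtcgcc
RAB29, chr1:205775483-205775732, minus strand: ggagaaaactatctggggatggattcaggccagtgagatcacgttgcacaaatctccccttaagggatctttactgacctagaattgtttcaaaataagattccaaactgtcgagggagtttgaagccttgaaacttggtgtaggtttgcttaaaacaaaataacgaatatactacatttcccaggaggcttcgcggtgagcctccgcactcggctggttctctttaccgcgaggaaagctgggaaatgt
RAB32, chr6:146543583-146543832, plus strand: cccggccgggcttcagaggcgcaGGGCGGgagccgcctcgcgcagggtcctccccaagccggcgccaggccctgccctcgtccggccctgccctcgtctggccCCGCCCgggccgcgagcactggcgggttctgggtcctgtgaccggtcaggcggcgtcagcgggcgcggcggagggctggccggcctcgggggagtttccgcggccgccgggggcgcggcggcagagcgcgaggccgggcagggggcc
RAB9A and RAB32 held 2 GC boxes each and RAB29 none, and their GC contents were 63.6%, 82.0% and 45.2% for RAB9A, RAB32 and RAB29. A missing match says only that these letters are not in the window.

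The largest fall between experiments was that of RAB8B, with 8.85 and 8.75 in Rab25 and 8.93 and 8.92 in pcDNA cells in experiment 2, against 9.23 and 9.40 in Rab25 and 9.50 and 9.70 in pcDNA cells in experiment 1 (log2 difference -0.60, SE 0.0662, adjusted p = 0.000235). Its paralogue RAB8A differed by 0.12 and did not pass. RAB4B (-0.43), RAB28 (-0.33), RAB21 (-0.32), RAB6A (-0.32), RAB6C (-0.27), RAB40B (-0.26) and RAB31 (-0.20) were also lower. The calls of RAB4B and RAB28 were lost when 2 and 4 of the 8 arrays were left out in turn.

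RAB3B, RAB1B and RAB35 were higher in experiment 2. RAB3B had 9.98 and 9.77 in Rab25 and 9.77 and 9.65 in pcDNA cells in experiment 2, against 9.21 and 9.57 in Rab25 and 9.12 and 9.46 in pcDNA cells in experiment 1 (log2 difference 0.45, SE 0.107, adjusted p = 0.0113). RAB1B differed by 0.25 and RAB35 by 0.20. RAB1B and RAB6A, which rose together with Rab25, thus went in opposite directions between the experiments. Without the second starved pcDNA array of experiment 2, 9 members passed, and RAB1B, RAB35, RAB4B and RAB28 were among those lost. The experiments may differ in exposure, date and handling, which cannot be told apart.

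**Figure D5:**
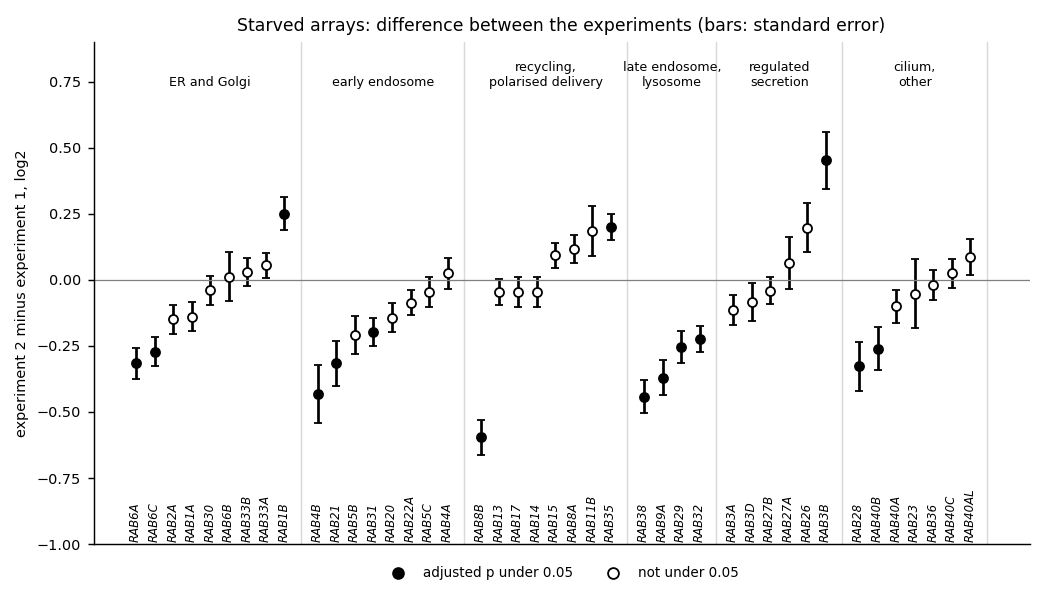
Difference in log2 signal between experiment 2 and experiment 1 in starved cells of both lines for the 42 Rab genes, by role, with standard errors; filled circles passed. All 4 Rabs of the late endosome and lysosome group are below 0 and filled, and RAB8B (-0.60) and RAB3B (0.45) are the lowest and the highest.

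Regulators and effectors of the Rab cycle were counted in 4 lists. Of 15 measured genes of prenylation and of the GDI cycle, none rose and 5 fell (33.3% called, against 24.7% of all genes). RABGGTB, the catalytic subunit of the enzyme that prenylates Rabs, averaged 11.90 in Rab25 and 12.33 in pcDNA cells (log2 difference -0.41, SE 0.0597, adjusted p = 7.55e-05). YIPF4 (-0.34) and PRAF2 (-0.21), membrane proteins of the Yip and prenylated Rab acceptor families, and CHML (-0.18), a Rab escort protein, fell too. Of 34 measured GEFs, 3 rose and 10 fell (38.2%). DENND2D had the largest fall, at 7.16 in Rab25 and 8.12 in pcDNA cells (log2 difference -0.95, SE 0.0646, adjusted p = 3.04e-08).

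DENND5B fell by 0.50, and TRAPPC4 (0.38), a subunit of the TRAPP complexes that activate RAB1, and RIN1 (0.35), an exchange factor of RAB5, rose; both of these lie on chromosome 11. Of 22 measured GAPs, 4 rose and 2 fell (27.3%), with RABGAP1L (0.45), TBC1D2 (0.27) and TBC1D16 (0.25) higher and TBC1D17 (-0.40) lower. Of 43 measured effectors, 5 rose and 14 fell (44.2%). MYO5C, a myosin that carries secretory granules, averaged 9.76 in Rab25 and 8.82 in pcDNA cells (log2 difference 0.93, SE 0.109, adjusted p = 7.77e-06). EHBP1 (-0.49), an effector of RAB8 and RAB10, BICD1 (-0.46), a dynein adaptor bound by RAB6, and RABEP2 (-0.38), bound by RAB4 and RAB5, fell.

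After FBS, 2 effectors rose and 15 fell (39.5%, against 17.2% of all genes). The largest falls were those of EXPH5 (-1.14), GOLGA1 (-0.66), GCC1 (-0.51) and INPP5B (-0.48). Counts for the other lists after FBS were 1 higher and 3 lower of 15 for prenylation and GDI, 2 and 7 of 34 for GEFs, and 3 and 2 of 22 for GAPs. These lists were written with earlier results of these data known, and the counts are a description. The arrays of FBS-treated Rab25 cells, with their markers of other cell types, enter these counts.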

How the data were processed

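RNA of 24 cultures was measured on Affymetrix arrays. The authors deposited log2 signals per probe set. Per the submitters' processing notes MAS5 and RMA were named, without version, role or order, so the background correction and normalization behind the values, and how far they compress dim signals, are not known. Of 22930 probe sets, 524 were controls, 19415 had a single symbol in the platform's annotation, 125 several and 2866 none. The probe set of highest mean stood for each gene, whether or not it is the best measured one.

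The values were fitted in limma 3.58.1 (R 4.3.3; lmFit and eBayes, tested on simulated data) on 10 groups and the experiment, with 13 residual and 3.51 prior degrees of freedom, and for the experiment contrast on the 8 starved arrays with 4 and 4.21. The experiment term was kept because same-experiment arrays deviated together in all 45 pairs of groups (median r = 0.658, lowest 0.0924). P values were adjusted by Benjamini-Hochberg over 11940 genes. Errors are SE for differences and SD for arrays, and the number of arrays limits the precision. Replicate arrays are described as independent, and the p values measure the spread between them.

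The members, roles, regulator lists and tests were chosen with earlier results of these data known. Named genes were up to 10 rises and 10 falls between lines, up to 5 of each in other contrasts, the gene of lowest p where none passed, and up to 4 of each regulator list. Alternatives were fits without the experiment term, other normalizations, the median over probe sets in place of the brightest, a filter of the lowest 40% of genes, only the arrays compared, each experiment alone, arrays left out, and 2 chosen after seeing the data (arrays of lowest median left out, and a window of 1 Mb). Positions are those of RefSeq on GRCh38.p14, and promoters those of its sequence table.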

Additional observations from a re-analysis of the deposited data

Results flagged for a closer look

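In 84 groups of 4 arrays tested over the members, 1 array stood far from the other 3, where chance flags about 1 in 20 groups. RAB3D, an exocytic Rab, had a log2 signal of 5.61 on 1 starved Rab25 array of experiment 2, against 5.94 to 5.94 on the other 3 starved Rab25 arrays. The gap was 0.978 of the group's whole range, above the 95% limit of Dixon's test for 4 samples. The probe set is dim, and RAB3D passed no test.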

How the results depend on the processing

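The 13 calls between lines ranged from 9 to 13 when single arrays were left out and fell to 8 in experiment 1 alone. RAB1B, RAB6A, RAB6C, RAB4B, RAB2A, RAB35 and RAB27A kept their call under each alternative run for that contrast, while RAB14 lost it without any one of 16 arrays, RAB15 of 18, RAB28 of 8 and RAB40A of 3. With the median over probe sets in place of the brightest, RAB14 reversed to -0.10 and RAB2A after IGF to 0.032. Without the replicate block (the experiment term) calls numbered 9 between lines, 4 in starved cells and 0 after FBS. The starved calls ranged from 8 to 10 over left-out arrays. The FBS calls moved most: 11 without the lowest 40% of genes, 4 with only the arrays compared, 18 in experiment 1 alone, 1 in experiment 2 alone, 3 without both FBS-treated Rab25 arrays, 15 without the 2 arrays of lowest median, and 0 to 14 with single arrays left out. They were 0 without the FBS-treated pcDNA array of experiment 1, 14 without that of experiment 2 and 14 without the FBS-treated Rab25 array of experiment 2, and 3 without that of experiment 1. Fits of 1 experiment hold 1 treated array per line, assumed to vary like the starved ones. The IGF calls were 6 in experiment 1 alone and 0 to 2 with arrays left out (RAB38 and RAB40B without the IGF-treated Rab25 array of experiment 2). TGF beta gave 0 to 1 (RAB31), the difference in FBS response 0 to 1 (RAB6B), and the experiment contrast 9 to 17. The cause of these shifts was not tested. Among the alternatives, shares of all genes are given above only for each experiment alone. For the others a shift in Rab counts cannot be told from a shift over all genes. No scaling moved the median of all genes by over 0.1.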
